A study of Mus musculus with 6 samples.

Results

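The 4 tissue inhibitors of metalloproteinases, Timp1, Timp2, Timp3 and Timp4, were followed in mouse hearts on 1-colour Agilent expression arrays, with 1 array for each heart. They were found through the RefSeq accession of each non-control probe, which gave 5 probes for the 4 genes, of 55608 probes and 20128 named genes in all. Timp2 had 2 probes and the other genes 1 each. The KO-labelled group was 3 hearts of the genotype PHD2/3f/f; Cre+/-, and the control group was 3 hearts of the genotype PHD2/3f/f; Cre-/-, so mice of both groups carried the floxed alleles. All mice were of the C57/B6 strain and 8 weeks old, and the labels call the hearts of a group biological replicates. Neither the promoter behind Cre, an inducing agent nor the exons removed are named in the labels. PHD2 and PHD3 are oxygen-dependent prolyl hydroxylases that mark hypoxia-inducible factors (HIF) for degradation, and the series title places the study in the cardiac response to beta-adrenergic stress.

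TIMPs are small secreted proteins whose N-terminal domain fits into the active site of metalloproteinases and blocks it. TIMP1 is the member best known for induction by cytokines and injury, TIMP2 both inhibits MMP2 and takes part in its activation on the cell surface by MMP14, TIMP3 is held in the extracellular matrix and also inhibits ADAM and ADAMTS proteases, and TIMP4 is known for high expression in the heart. In myocardium the balance of metalloproteinases and TIMPs is known to govern the turnover of collagen and other matrix proteins. In the mouse gene table used here (RefSeq, GRCm38.p6), Timp1 lies within the span of the synapsin gene Syn1, Timp4 within Syn2 and Timp3 within Syn3, while no protein-coding gene spans Timp2.

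The start regions of Timp1 and Timp4 are shown because these genes had the largest differences, in opposite directions. The bases are the 250 before the annotated start, from RefSeq on GRCm38.p6, at chrX:20869916-20870165 on the plus strand for Timp1 and chr6:115252206-115252455 on the minus strand for Timp4. Capitals mark ACGTG and GCGTG, the core of the HIF binding site, searched on both strands.
Timp1: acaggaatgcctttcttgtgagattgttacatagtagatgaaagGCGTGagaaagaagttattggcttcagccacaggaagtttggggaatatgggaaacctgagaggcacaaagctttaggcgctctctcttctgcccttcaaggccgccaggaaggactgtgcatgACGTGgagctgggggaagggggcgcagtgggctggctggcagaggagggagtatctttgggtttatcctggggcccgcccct
Timp4: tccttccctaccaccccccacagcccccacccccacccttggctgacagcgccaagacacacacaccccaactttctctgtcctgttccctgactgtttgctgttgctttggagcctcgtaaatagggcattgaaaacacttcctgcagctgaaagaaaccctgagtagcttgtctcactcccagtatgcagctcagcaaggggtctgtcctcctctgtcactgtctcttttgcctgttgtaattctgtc
The Timp1 window held 1 ACGTG, beginning 82 bases before the start, and 1 GCGTG, beginning 206 bases before it. The Timp4 window held neither. Timp2 and Timp3 held 1 GCGTG each, 113 and 69 bases before the start, and no ACGTG. Of 32851 start regions of the same length in the table, 16.6% held ACGTG and 28.2% held GCGTG. The hexamer bound by thyroid hormone receptors, AGGTCA, and the AP-1 site, TGANTCA, were in none of the 4 windows, against 14% and 6.75% of all. These matches describe letters and not binding.

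The signal of each probe is given as log2 after subtraction of its array's 75th percentile, here called the relative signal. Between 46.3% and 51.0% of probes lay well above background on each array and none was saturated. Egln1, the gene of PHD2, had a relative signal of -0.39, 0.29 and 0.06 in the KO-labelled hearts, against 1.27, 1.39 and 0.99 in the control hearts (limma adjusted p = 0.00652). Egln3, the gene of PHD3, had 4.24, 4.62 and 4.77 in the KO-labelled hearts, against 2.57, 2.44 and 2.69 in the control hearts (limma adjusted p = 0.00165), a rise where the label names a knockout. Egln3 is a known HIF target. It had 2 probes that passed the filter on dim probes, and the values are those of the brighter. Whether either lies within the removed exons could not be checked here. The term KO-labelled is used for that reason.

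Single hearts stood apart in genes that mark other tissue parts. Markers of epicardium and mesothelium, such as Wt1 and Msln, had a summed level of 24.3, 18.6 and 16.4 times the 75th percentile signal in the KO-labelled hearts, against 6.92, 46.1 and 8.51 in the control hearts, with all 6 markers tested and well above background on every array. Control replicate 2 was thus the highest of all. In 4 genes of atrial myocardium (Myl7, Sln, Myl4 and Mybphl), a list chosen after the values were seen, the summed level was 423, 1091 and 29.7 in the KO-labelled hearts, against 5.16, 1001 and 289 in the control hearts, so both groups held hearts with high and with low atrial signal. Adipocyte markers had a summed level of 109, 499 and 173 in the KO-labelled hearts, against 233, 173 and 329 in the control hearts, and KO-labelled replicate 2 and control replicate 3 were highest in their groups. Fabp4 was the brightest of them in every heart and weighs most in this sum. It was at 6.73, 7.92 and 7.37 in the KO-labelled hearts, against 7.84, 7.28 and 7.86 in the control hearts. Adipoq was at -2.10, 3.79 and -1.54, against -2.44, -0.42 and 1.92. The mean relative signal of the list, given below, ranks control replicates 1 and 2 the other way from the sum. Over all genes and features, 16.1% rose and 23% fell by the rule given below, and the groups did not overlap in 55.9%. Of the 6 adipocyte markers tested and the 6 mesothelial ones, 0 passed between the groups, and the groups overlapped in every one. Without control replicate 2, 3 of the 6 mesothelial markers rose. In the other lists, 0 of 7 endothelial markers passed, 3 rose and 3 fell of 8 smooth muscle and pericyte markers, 1 fell of 4 erythroid markers and 1 rose and 1 fell of 3 neural markers. Without KO-labelled replicate 2, 0 of the erythroid markers passed, and of the neural ones 0 rose and 1 fell. Of 6 lymphocyte markers 3 passed the filter on dim probes, among them Cd3d through the KO-labelled arrays alone, and 0 of the 2 well above background on all arrays passed the test. Of 6 skeletal muscle markers 3 passed the filter, which Myh1, Myh2 and Myh4 did not. Both of those well above background on all arrays, Acta1 and Mybpc2, rose. Whether the hearts held skeletal muscle tissue was not tested.

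The 4 inhibitors did not move as a family. Timp4 fell 11.8-fold, and Timp3 fell 1.42-fold with a p close to the threshold. Timp1 was 10.6-fold higher on average but did not pass, since 1 control heart had a signal like that of the KO-labelled hearts. Timp2 differed little by its brighter probe and rose by its dimmer one. A gene was called at an adjusted p below 0.05 in limma's test, adjusted by Benjamini and Hochberg's method across all 20014 genes and unnamed features. That rule called 39.1% of them, 16.1% higher and 23% lower, so a call on 2 of 4 genes is near the background share.

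**Figure D1:**
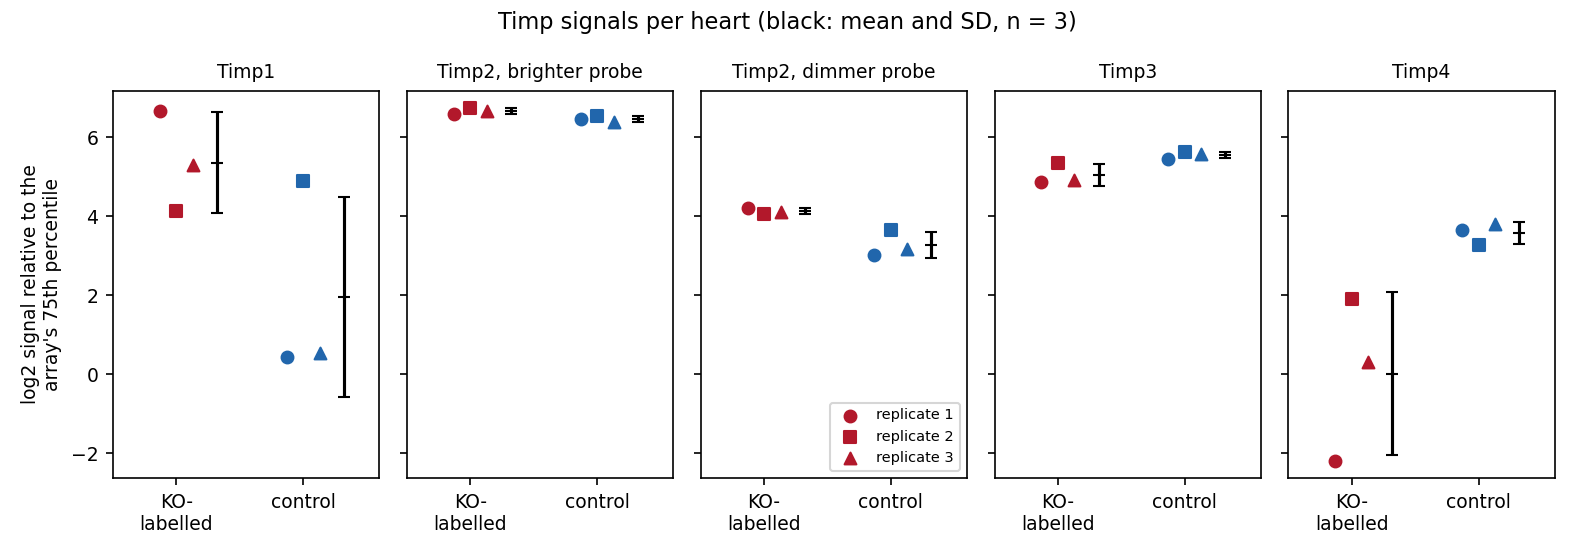
Relative signal (log2, after subtraction of the 75th percentile of its array) of each Timp probe in each heart, KO-labelled hearts in red and control hearts in blue, with the mean and SD of the 3 hearts in black. Control replicate 2 stands with the KO-labelled hearts in Timp1, and the KO-labelled hearts spread widely in Timp4.

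Timp4 (NM_080639) had a relative signal of -2.18, 1.92 and 0.31 in the KO-labelled hearts, against 3.64, 3.28 and 3.81 in the control hearts. All KO-labelled hearts were below all control hearts, and the probe was well above background on all arrays of both groups. Such a separation was seen in 55.9% of everything tested, so by itself it is common here. The mean was 0.02 ± 2.07 in KO-labelled hearts and 3.58 ± 0.27 in control hearts (SD, n = 3 each), a log2 difference of -3.56 ± 0.94 (SE; 95% interval -5.81 to -1.31; limma adjusted p = 0.0260). By the size of its fall Timp4 ranked 12 among the 20014 tested and 9 among the 13186 with a symbol. As unscaled scanner signal, Timp4 read 51.9, 705 and 246 in the KO-labelled hearts, against 1843, 1945 and 2073 in the control hearts.

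The spread of Timp4 among the KO-labelled hearts was itself unusual. Its highest and lowest KO-labelled hearts were 17.1-fold apart, against 1.45-fold in the control hearts. Its SD in KO-labelled hearts exceeded that of 99.7% of all genes and features, where the median SD was 0.19. Its SD in control hearts exceeded that of 73.3%. Without KO-labelled replicate 1, the lowest heart, the fall was 5.51-fold (adjusted p = 0.0162), and without KO-labelled replicate 2, the highest, it was 22.8-fold (adjusted p = 0.00845). The call was lost without KO-labelled replicate 3 and without control replicate 1, 2 or 3 (adjusted p of 0.0578, 0.0780, 0.0530 and 0.0795). Hearts of the same number also shared their second position index on the slide. Within these positions the Timp4 difference was -5.83, -1.36 and -3.50 for replicates 1, 2 and 3, and with the replicate number as a block the call was lost (adjusted p = 0.0522).

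Other genes followed the same order of KO-labelled hearts as Timp4, and with 3 hearts an order is easily shared. The adipocyte markers had a mean relative signal of -0.35, 4.81 and 0.13 in the KO-labelled hearts, against -0.33, 1.23 and 3.21 in the control hearts. Timp4 is known to be expressed in fat as well as in heart, and the KO-labelled heart with the most adipocyte signal was the one with the most Timp4. The cardiomyocyte markers had a summed level of 3240, 4062 and 3944 in the KO-labelled hearts, against 7200, 5223 and 6810 in the control hearts. Of these 8 genes 7 fell, against 23% of all genes and features. The endothelial markers had that order too, with a summed level of 153, 232 and 190 in the KO-labelled hearts, against 180, 172 and 196 in the control hearts. The part of any of these lists in the Timp4 result was not tested, and fewer cells of a type cannot be told apart from less RNA per cell. Without KO-labelled replicate 2 the fall of Timp4 was larger, as given above.

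Timp3 (NM_011595) had a relative signal of 4.86, 5.36 and 4.91 in the KO-labelled hearts, against 5.46, 5.62 and 5.56 in the control hearts. The groups did not overlap, but KO-labelled replicate 2 lay just below the lowest control heart. The mean was 5.04 ± 0.28 in KO-labelled hearts and 5.55 ± 0.08 in control hearts (SD, n = 3 each), a log2 difference of -0.51 ± 0.16 (SE; 95% interval -0.90 to -0.12; limma adjusted p = 0.0484). The call was lost on leaving out any heart except KO-labelled replicate 2 (adjusted p of 0.0948 to 0.144). It was also lost with spike-in scaling, which set the arrays level on added control RNA and gave -0.26 (adjusted p = 0.352). Within the shared slide positions the Timp3 difference was -0.60, -0.26 and -0.66, and the call was lost with the replicate number as a block (adjusted p = 0.0688).

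Timp1 (NM_001044384) had a relative signal of 6.66, 4.12 and 5.29 in the KO-labelled hearts, against 0.44, 4.88 and 0.55 in the control hearts. Control replicates 1 and 3 lay far below every KO-labelled heart, while control replicate 2 lay above KO-labelled replicate 2. The mean was 5.36 ± 1.27 in KO-labelled hearts and 1.96 ± 2.53 in control hearts (SD, n = 3 each), a log2 difference of 3.40 ± 1.28 (SE; 95% interval 0.35 to 6.45; limma adjusted p = 0.0745). As unscaled scanner signal, Timp1 read 23863, 3253 and 7719 in the KO-labelled hearts, against 200, 5928 and 216 in the control hearts.

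Without control replicate 2, Timp1 was 29.1-fold higher in KO-labelled hearts (log2 difference 4.86 ± 0.73 SE; limma adjusted p = 0.00799). Without any other heart it did not pass, with log2 differences of 2.64 to 4.02 (adjusted p of 0.0728 to 0.207). The control hearts were 21.7-fold apart at their extremes, and the SD of Timp1 in control hearts exceeded that of 99.9% of all genes and features. The KO-labelled hearts were 5.82-fold apart, with an SD above that of 98.7%. Timp1 was therefore the most variable of the 4 genes among control hearts and Timp4 among KO-labelled hearts.

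Control replicate 2 was set against the mean of the other control hearts to see which genes rose with Timp1 in it. Timp1 was 4.39 higher on the log2 scale. Of 12804 genes with a symbol, predicted genes and clones left out, only 12 showed a larger gap. These 12, named after their values were seen, were Saa3, Spp1, Cxcl5 and Cfi, genes of acute-phase, chemokine and complement proteins and osteopontin, the atrial genes Sln, Mybphl, Myl7 and Myl4, the hyaluronan synthase gene Has1, the secreted protein gene Cthrc1, and Dmkn and Mlana. Saa3 had the widest gap, at 8.00. For 7 of the 12, all KO-labelled hearts also lay above both other control hearts. The 12 were picked for a gap above those controls, which favours this, and the share over all genes was not computed. Among the 7, Spp1, Cfi and Cthrc1 had low signals in control replicates 1 and 3, at -4.87 or below. Among all 20014 genes and features, 50 were more than 3 higher in control replicate 2 than in the mean of the other control hearts, against 1 in control replicate 1 and 9 in control replicate 3. By the same measure within their group, KO-labelled replicates 1, 2 and 3 had 7, 63 and 2 higher, so KO-labelled replicate 2 had more than control replicate 2. More than 3 lower were 26, 2 and 12 in the KO-labelled hearts, against 31, 1 and 1 in the control hearts.

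**Figure D2:**
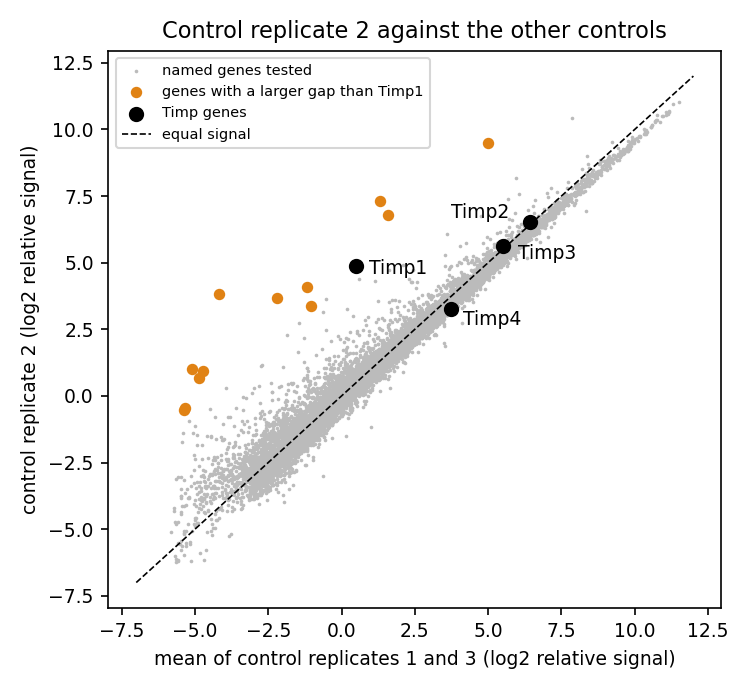
Relative signal (log2) of each named gene tested in control replicate 2 against the mean of control replicates 1 and 3. Timp1 lies 4.39 above the line of equal signal, while Timp2, Timp3 and Timp4 lie close to it. Further above the line are 12 genes (orange), predicted genes and clones not counted.

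Marker lists moved with Timp1 in the same heart. The fibroblast markers had a summed level of 1118, 1005 and 1062 in the KO-labelled hearts, against 460, 759 and 412 in the control hearts, so control replicate 2 was the control heart nearest to the KO-labelled ones. Of these 8 markers 5 rose, against 16.1% of all genes and features, while Dcn (-0.23), Dpt (-0.15) and Pdgfra (0.33) did not pass. Col1a1, Col1a2, Col3a1, Dcn and Lum of this list are also counted among the matrix substrates. The macrophage markers had 222, 137 and 190 in the KO-labelled hearts, against 71.6, 111 and 85.2 in the control hearts, with control replicate 2 again the highest control heart. Of the 7 macrophage markers tested 5 rose and 1, Cd163, fell by 0.95 (adjusted p = 0.0235), where 16.1% of all genes and features rose and 23% fell. Neutrophil markers had 58.8, 3.66 and 5.10 in the KO-labelled hearts, against 1.53, 5.20 and 1.34 in the control hearts, and KO-labelled replicate 1, highest in these, was also highest in Timp1. Of 5 neutrophil markers 3 were tested and 0 passed, where 39.1% of all genes and features did. In KO-labelled replicate 1 the sum came mostly from S100a9 (5.54) and S100a8 (3.59), while Camp was at -1.86. The mesothelial list was higher in control replicate 2 than in any KO-labelled heart, while Timp1 was higher in 2 of the 3 KO-labelled hearts than in it. The part of these in the Timp1 values was not tested.

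Timp2 (NM_011594) gave different answers by its 2 probes. The brighter probe had a relative signal of 6.58, 6.73 and 6.66 in the KO-labelled hearts, against 6.46, 6.53 and 6.38 in the control hearts. The KO-labelled hearts were all higher, by little, with a mean of 6.66 ± 0.08 in KO-labelled hearts and 6.45 ± 0.07 in control hearts (SD, n = 3 each). The log2 difference of 0.20 ± 0.11 (SE) did not pass (limma adjusted p = 0.188), and its 95% interval ran from -0.06 to 0.47. The spread of this probe was low, with an SD above that of only 14.6% of genes and features in KO-labelled hearts and 12.5% in control hearts.

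The dimmer Timp2 probe had a relative signal of 4.22, 4.06 and 4.11 in the KO-labelled hearts, against 3.01, 3.66 and 3.16 in the control hearts. The groups did not overlap, and control replicate 2 was again the control heart nearest to the KO-labelled ones. The log2 difference was 0.85 ± 0.19 (SE), a 1.81-fold rise (limma adjusted p = 0.0145 over 26070 probes, of which 38.2% were called). The call was lost without control replicate 1 or 3 (adjusted p of 0.0529 and 0.0572). With the mean of both probes as the value of the gene, Timp2 rose by 0.53 (adjusted p = 0.0226). Both probes carry the same accession, their positions in the transcript were not used here, and whether their changes differ was not tested.

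**Figure D3:**
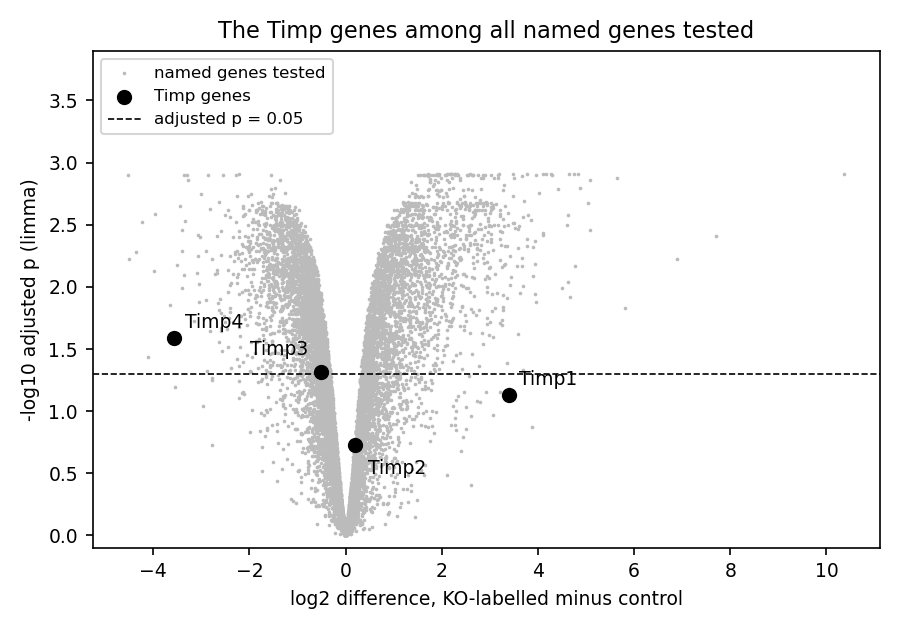
Log2 difference (KO-labelled minus control) against -log10 of the adjusted p of limma's test for each named gene, with the 4 Timp genes in black and the threshold of 0.05 dashed. Timp4 is past the threshold, Timp3 just past it, and Timp1 and Timp2 (brighter probe) are not.

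The change of each inhibitor was also set against that of the others within each heart, where any scaling of a whole array cancels. This gave 6 pairs, each tested with an exact two-sided permutation test over the 20 ways to split the hearts, in which 3 hearts against 3 cannot give a p below 0.1. Timp2 entered by its brighter probe, and pairs with its dimmer probe were not tested. Timp1 minus Timp4 was 8.84, 2.21 and 4.97 in the KO-labelled hearts, against -3.20, 1.61 and -3.27 in the control hearts. The groups did not overlap, with the balance of the pair shifted by 6.96 on the log2 scale toward Timp1 (exact p = 0.1; adjusted p = 0.15). On leaving out 1 heart that shift ran from 5.21 to 8.58, at 8.58 without control replicate 2 and 8.53 without KO-labelled replicate 2. Timp3 minus Timp4 shifted by 3.06 (2.05 to 3.85 on leaving out 1 heart) and Timp2 minus Timp4 by 3.76 (2.70 to 4.68), each with no overlap (exact p = 0.1; adjusted p = 0.15). Timp2 minus Timp3 shifted by 0.71, with 1.72, 1.37 and 1.76 in the KO-labelled hearts, against 1.00, 0.91 and 0.82 in the control hearts (exact p = 0.1; adjusted p = 0.15). The groups overlapped in Timp1 minus Timp2 and in Timp1 minus Timp3 (exact p = 0.2; adjusted p = 0.2 for both). Their shifts ran from 2.44 to 4.62 and from 3.16 to 5.33 on leaving out 1 heart.

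The genes whose values across the 6 hearts were most like each member were found by Pearson's r among 12803 genes, as a description with no test. Predicted genes and clones were left out, and Timp2 was taken by its brighter probe. In these comparisons the 2 groups of hearts are shared by every gene, so a difference between groups raises r. Closest to Timp1 were Nxpe5 (r = 0.999), Ndn, the necdin gene (0.998), and Anxa9, an annexin gene (0.997). All of them were higher in control replicate 2 than in the other control hearts. Nxpe5 was dim in control replicates 1 and 3, at -5.39 and -5.02. Closest to Timp4 were Plk5 (0.999), the sulfotransferase gene Sult1a1 (0.998) and the receptor gene Tnfrsf19 (0.998). Plk5 was dim in the KO-labelled hearts, at -5.92, -2.87 and -4.03. Timp4 had 599 genes at r above 0.95, against 244 for Timp1, 115 for Timp3 and 67 for Timp2. Closest to Timp3 were the Eph receptor gene Epha4 (0.997), the sodium channel subunit gene Scn2b (0.996) and the cardiac transcription factor gene Tbx5 (0.995), and closest to Timp2 were Mansc1 (0.991), Fndc10 (0.987) and the stress-response gene Sesn2 (0.986).

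The counts below for proteases and other genes around the TIMPs cover only members that passed the filter on dim probes, and stand beside 16.1% of all genes and features that rose and 23% that fell. Of 15 secreted matrix metalloproteinases, 14 had a named probe and 3 passed the filter on dim probes, which Mmp9 did not, and of these 3, 2 rose and 0 fell. Mmp2, the gelatinase activated with the help of TIMP2, had a relative signal of 3.45, 3.69 and 3.88 in the KO-labelled hearts, against 2.67, 3.23 and 2.79 in the control hearts (log2 difference 0.78 ± 0.19 SE; limma adjusted p = 0.0212). Mmp11, stromelysin 3, rose by 0.51 (adjusted p = 0.0473) and did not pass without control replicate 2, nor without 4 of the other 5 hearts (adjusted p up to 0.134). Mmp3, stromelysin 1, was at 1.79, -0.68 and -0.31 in the KO-labelled hearts, against -1.22, 1.76 and -0.15 in the control hearts, with overlapping groups. Mmp2 did not pass without KO-labelled replicate 3 or control replicate 1 or 3 (adjusted p up to 0.0769).

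Of 7 membrane-bound metalloproteinases 4 were tested, of which 2 rose and 1 fell (3 and 1 without KO-labelled replicate 2, 2 and 0 without control replicate 2). Mmp14, the surface activator of pro-MMP2 to which TIMP2 binds, had 0.94, -0.13 and 0.24 in the KO-labelled hearts, against -2.36, -0.70 and -2.14 in the control hearts. All KO-labelled hearts were higher, and control replicate 2 was the highest control heart (log2 difference 2.09 ± 0.48 SE; limma adjusted p = 0.0172). Mmp23 rose by 1.62 (adjusted p = 0.0144) and Mmp15 fell by 0.72 (adjusted p = 0.0391). Without control replicate 1 or 3, Mmp14 and Mmp23 did not pass (adjusted p up to 0.0617 and 0.0526). Mmp15 did not pass without KO-labelled replicate 3 or without control replicate 1, 2 or 3 (adjusted p up to 0.117).

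Of 8 ADAM genes tested, of the membrane proteases that shed surface proteins, 6 rose and 0 fell. Adam19 had a relative signal of 2.96, 2.72 and 2.61 in the KO-labelled hearts, against 1.31, 1.70 and 1.89 in the control hearts (log2 difference 1.13 ± 0.19 SE; limma adjusted p = 0.00625). Adam12 rose by 1.38, Adam9 by 1.02 and Adam10 by 0.63, and these 4 genes passed under all 17 alternative settings run for them, with a rise of Adam12 between 0.48 and 1.62. Adam8 (2.24) and Adam15 (0.42) also rose, but each passed under only 9 of 17. Adam15 did not pass on leaving out any of the hearts (adjusted p from 0.0517). Adam8 did not pass without KO-labelled replicate 1 or 3 or control replicate 1 or 3 (adjusted p up to 0.117). Adam17, the sheddase of tumour necrosis factor that TIMP3 inhibits, had a difference of 0.42 and did not pass (adjusted p = 0.0626). Adam8, Adam15 and Adam17 were named after their values were seen.

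Of 10 ADAMTS genes tested, 5 rose and 1 fell. Adamts8 had 2.13, 2.25 and 1.53 in the KO-labelled hearts, against -2.68, 0.34 and -1.56 in the control hearts (log2 difference 3.27 ± 0.71 SE; limma adjusted p = 0.0144; 0.0524 without control replicate 3). Adamts2, the procollagen N-proteinase, rose by 2.13 ± 0.33 SE (adjusted p = 0.00519). Adamts4, an aggrecanase that TIMP3 inhibits, had a difference of 3.37, but its probe passed the filter through the KO-labelled arrays alone, being well above background on 1 of 3 control arrays. Over 16 alternatives the difference of Adamts4 ranged from 0.91 to 4.18. Of the 9 ADAMTS genes well above background on all arrays, 5 rose and 1 fell. Adamts7 fell by 1.11 (adjusted p = 0.00874).

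Of 7 activators of metalloproteinase zymogens tested, 3 rose, with Plaur, the urokinase receptor (1.56), Plau, urokinase (1.34), and the proprotein convertase gene Pcsk5 (0.56). None of these 3 passed without control replicate 1 or without control replicate 3 (adjusted p up to 0.113), and Plau passed the filter through the KO-labelled arrays alone, being well above background on 1 of 3 control arrays. Its difference ran from 0.28 to 1.77 over 16 alternatives, of which 9 passed. Of the 6 activators well above background on all arrays, 2 rose and 1 fell, as was the count without KO-labelled replicate 2. Of 9 other extracellular protease inhibitors tested, 3 rose and 0 fell, a share called below the 39.1% of all genes and features. Serpinf1, pigment epithelium-derived factor, rose by 1.82 and Serpine2, protease nexin 1, by 1.05, the last of which passed only without control replicate 2 among the fits that left out 1 heart (adjusted p up to 0.121 without the others). Without control replicate 2, 4 inhibitor genes rose and 1 fell, with Slpi, the secretory leukocyte protease inhibitor, passing (adjusted p = 0.0299) and Spint2 passing with a fall (adjusted p = 0.0256). Without KO-labelled replicate 2, 2 inhibitor genes rose and 1 fell.

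**Figure D4:**
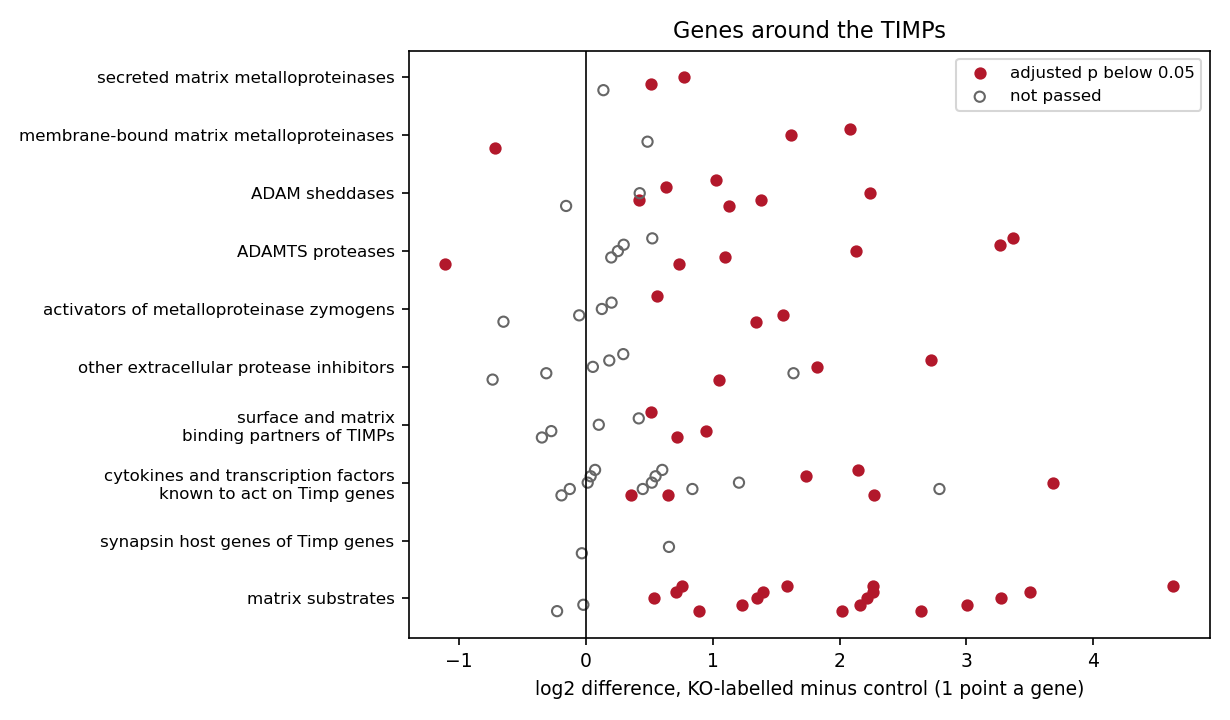
Log2 difference (KO-labelled minus control) of each tested gene in 10 lists of genes around the TIMPs, 1 point a gene, filled where limma's adjusted p was below 0.05 and open where it was not. Filled points lie mostly to the right of 0, and 18 of 20 matrix substrates are filled.

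Of 7 binding partners of TIMPs tested, 3 rose. These were Itgb1, integrin beta 1 (0.94), Cd63, the tetraspanin known to bind TIMP1 (0.72), and Igf1r, the receptor of insulin-like growth factor 1 (0.51). Cd63 had 7.16, 6.54 and 6.67 in the KO-labelled hearts, against 5.98, 6.19 and 6.06 in the control hearts (limma adjusted p = 0.0238; up to 0.0847 without KO-labelled replicate 3 or control replicate 1 or 3). Igf1r passed only without control replicate 2 among the fits that left out 1 heart. Of 24 cytokines and transcription factors known to act on Timp genes, 18 passed the filter, 6 rose and 0 fell. The 4 with the smallest p were Tgfb3 (1.74), Tgfb2 (2.14) and Tgfb1 (0.65), the transforming growth factors beta, and Runx1 (2.27), a transcription factor. Il6, the gene of interleukin 6, is among the 6 with a difference of 3.68, but passed the filter through the KO-labelled arrays alone (1 of 3 control arrays), had overlapping groups and passed under 5 of 16 alternatives. Of the 16 well above background on all arrays, 5 rose and 0 fell. Tgfb2 had 4.22, 2.92 and 3.33 in the KO-labelled hearts, against 1.08, 1.67 and 1.28 in the control hearts (limma adjusted p = 0.00585), and KO-labelled replicate 1 was highest in it as in Timp1.

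Of 20 matrix substrates, 18 rose and 0 fell. They include Tnc, tenascin C, whose probe passed the filter through the KO-labelled arrays alone (1 of 3 control arrays), and of the other 19, well above background on all arrays, 17 rose. Postn, periostin, had 5.90, 5.35 and 6.05 in the KO-labelled hearts, against 0.51, 2.36 and 0.53 in the control hearts (log2 difference 4.63 ± 0.51 SE; limma adjusted p = 0.00266). The collagen genes Col8a1 (3.50), Col4a1 (1.58) and Col4a2 (1.23) rose too, while Lama2 (-0.02) and Dcn (-0.23), decorin, did not pass. The median log2 difference was 1.80 over the matrix substrates, 0.83 over the ADAM genes, 0.63 over the ADAMTS genes, 0.29 over the other inhibitors and 0.57 over the cytokines and transcription factors, against -0.11 over all genes and features tested. For the 3 secreted metalloproteinases it was 0.51, for the 4 membrane-bound ones 1.05, for the activators 0.20 and for the binding partners 0.42.

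Neither synapsin gene tested passed. Syn2, around Timp4, had -0.83, 0.26 and -0.79 in the KO-labelled hearts, against -0.69, -0.18 and -0.39 in the control hearts (log2 difference -0.03 ± 0.32 SE; limma adjusted p = 0.944), beside the fall of Timp4 by 3.56. Syn1, around Timp1, had -1.68, -2.12 and -1.74 in the KO-labelled hearts, against -2.62, -2.81 and -2.07 in the control hearts (log2 difference 0.65 ± 0.23 SE; adjusted p = 0.0591). Its groups overlapped, and it passed without KO-labelled replicate 2 or control replicate 3 (adjusted p from 0.0338). In all, Syn1 passed under 6 of 17 alternatives, with cyclic loess, spike-in scaling, array weights and probes above background on all arrays among them. Control replicate 2 was the lowest heart in Syn1 and the highest control heart in Timp1. Syn3, around Timp3, did not pass the filter on dim probes.

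The direction of every Timp gene was the same under all 18 alternative settings, while the calls varied. Timp1 passed under 2 of 18, Timp2 by its brighter probe or the mean of its probes under 2 of 18, Timp3 under 8 of 18 and Timp4 under 11 of 18. The size ranged from 2.64 to 4.86 for Timp1, from 0.17 to 0.53 for Timp2, from -0.66 to -0.26 for Timp3 and from -4.51 to -2.46 for Timp4 on the log2 scale.

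**Figure D5:**
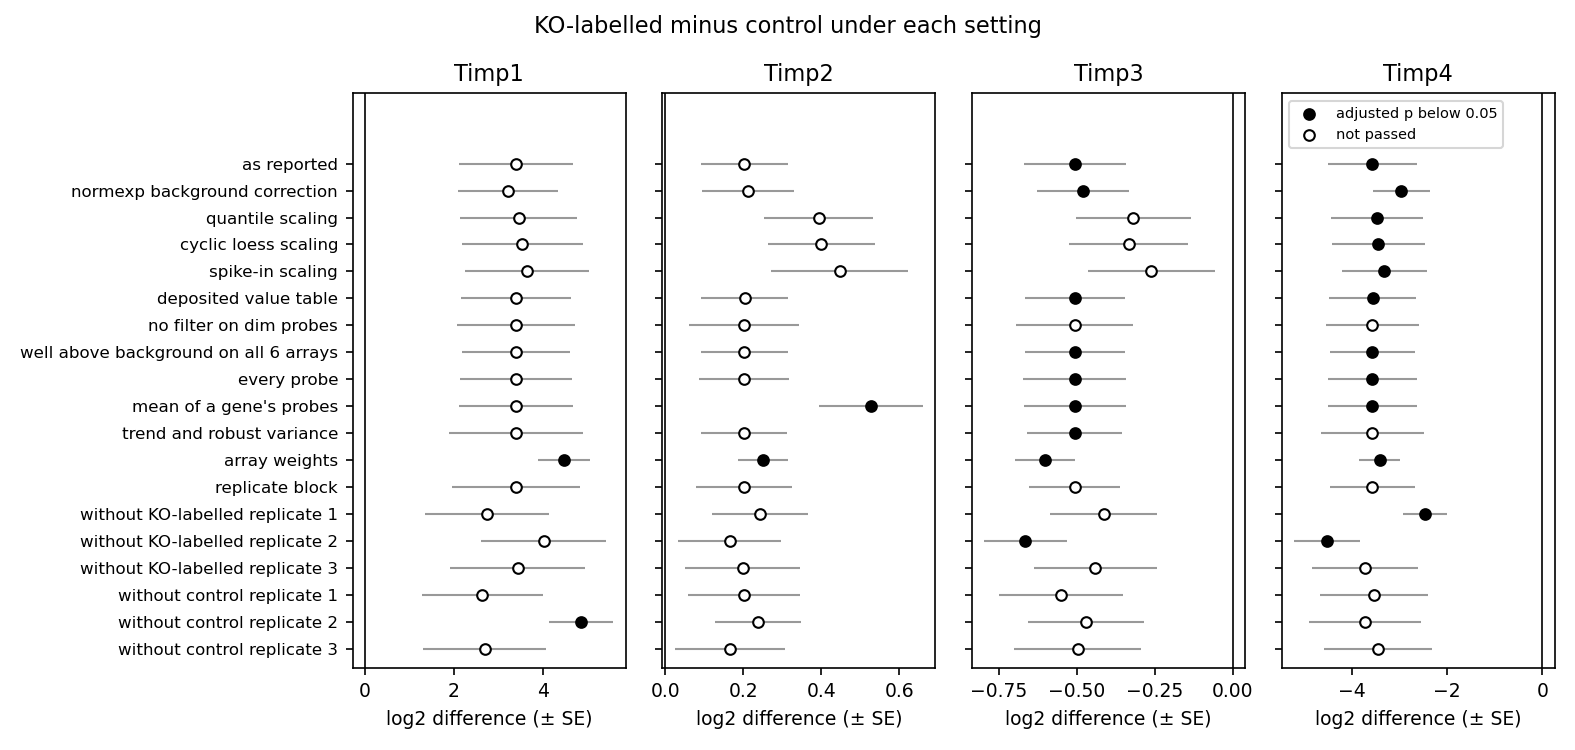
Log2 difference (KO-labelled minus control, with SE) of each Timp gene as reported and under each alternative setting, filled where limma's adjusted p was below 0.05. The sign of each gene is the same in every row, and Timp1 is filled with array weights and without control replicate 2.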

How the data were processed

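Spot brightness was taken from the deposited scanner output as processed intensity, linear and not scaled between arrays, together with the outlier and background flags that Agilent Feature Extraction 11.0.1.1 set, per the file headers. A table of log2 values was also deposited and served only as an alternative. The submitters' processing notes name R 3.1.3 as well, while the authors' normalization of that table is unstated. Of the labels' protocols, one describes columns for heart RNA and the other a kit for blood with globin removal, and the conflict was not resolved.

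Log2 of the processed signal was taken, outlier spots were left out (73 of 55681 probes had no other spot on at least 1 array), spots of a probe were averaged and each array's 75th percentile was subtracted. RefSeq accessions named 26551 probes through a gene table, and 29057 had no symbol. A probe stayed in (26070 did) if all arrays of either group had it well above background, and the brightest probe stood for each gene or unnamed accession. Files were read with data.table, version 1.17.8, and fitted two-sided in R 4.3.3 by limma 3.58.1, and the procedure was tested on simulated data. For Timp2 every probe was also fitted. With 6 arrays their number limits the precision. The files hold no mean spot signal, so normexp (offset 50) used median signals. All arrays lay on 1 slide and 1 scan. The first position index differed between KO-labelled and control arrays, so position and group cannot be told apart.

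All 4 Timp genes, Egln1, Egln3 and the synapsin genes are named. From each list the text names up to 4 passing genes with the smallest p (or the leading 2 if fewer passed), and 3 genes most like each member. One gene that this rule names is not reported here. The proteins of the 4 genes were not compared here. The members and lists were chosen with earlier results of these data known.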

Additional observations from a re-analysis of the deposited data

How the results depend on the processing

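Of the alternatives to the settings used, none turned the direction of a Timp gene. The 7817 genes and features called (41.1% higher) became 4345 with no filter on dim probes, 13713 with array weights, for which limma reported that the iteration stopped before its tolerance, 4862 with the replicate block, and 3987 to 8672 on leaving out 1 heart. The split was 60.3% higher with spike-in scaling and 55.3% with cyclic loess, which moved the median difference of all genes and features to 0.13 and 0.02, against -0.11 as scaled here. The array weights were 0.32, 0.49 and 7.69 in the KO-labelled hearts, against 1.26, 0.26 and 2.50 in the control hearts. That fit thus rests mostly on KO-labelled replicate 3 within its group and gives control replicate 2 the least weight. Timp1 passed with array weights (4.48) and ranged from 2.64 to 4.86 without 1 heart. Timp2 passed with array weights (0.25) and with the mean of its probes (0.53). Timp3 did not pass with quantile scaling (-0.32), cyclic loess (-0.33), spike-in scaling (-0.26), no filter (-0.51) or the replicate block (-0.51), and ranged from -0.66 to -0.41 without 1 heart. Timp4 did not pass with no filter (-3.56; adjusted p = 0.0675), trend and robust variance (-3.56; 0.0528) or the replicate block (-3.56; 0.0522), and ranged from -4.51 to -2.46 without 1 heart. The dimmer Timp2 probe did not pass with no filter (0.85; adjusted p = 0.0627) and ranged from 0.72 to 1.04 without 1 heart. Leaving out a heart lowers the degrees of freedom, and the cause of the other lost calls was not tested. Same-numbered hearts share a replicate number and a second slide position, and the labels give no other pairing. Their deviations correlated at -0.15, -0.12 and -0.08, and none of the hearts correlated best with its own number. Of 30 named list genes that passed, 18 did so under every alternative run. List counts without control replicate 2 or KO-labelled replicate 2 or on probes above background on all arrays, and differences within slide positions, were chosen after seeing the data. The other settings for the dimmer Timp2 probe were added then too.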
